A study of Mus musculus with 2 samples.

Results

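The ventrolateral periaqueductal gray (vlPAG) holds glutamatergic nuclei in which the neuropeptide S receptor gene Npsr1, the neurotensin gene Nts, or the developmental genes Rspo2 and Lhx2 were detected. They were chosen on measured unique molecular identifiers (UMIs, counts of captured RNA molecules). A member had at least 1 UMI of the vesicular glutamate transporters Slc17a6, Slc17a7 and Slc17a8 together, and more of these than of Gad1, Gad2 and Slc32a1, which mark GABAergic cells. It also had at least 3 UMIs of Npsr1, Nts, Rspo2 and Lhx2 together, more than of Tac1 and Lhx9, at most 2 of Ebf2 and Ebf3, and 0 of Tph2. Of 13822 nuclei with over 500 UMIs and under 20% mitochondrial counts, 116 were members. These were 59 of 7500 in the normal food diet (NFD) library, 0.787% (95% Clopper-Pearson interval 0.599 to 1.01), and 57 of 6322 in the high-fat diet (HFD) library, 0.902% (0.684 to 1.17).

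The study compared the vlPAG of wild-type C57/BL6J mice that were put on NFD or HFD when 8 weeks old and kept on it for 7 weeks, by single-nucleus RNA sequencing (10x 3' chemistry). Each diet is 1 library from the pooled tissue of 18 mice, so no value here has a biological replicate, and every interval covers counting error only. Members were also deeper than the library as a whole, with medians of 8141 and 11065 UMIs per nucleus in NFD and HFD against 4504.5 and 7347.5 over all nuclei. The libraries shared 13 cell barcodes, among which 1 was a member and 0 were members in both.

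Glutamatergic neurons load glutamate into synaptic vesicles through the transporters encoded by Slc17a6, Slc17a7 and Slc17a8, and many of them release peptides as well. Npsr1 encodes the receptor for neuropeptide S, a peptide tied to arousal and anxiety, while Nts encodes neurotensin, a peptide known in the periaqueductal gray for its part in pain control. Rspo2 encodes a secreted enhancer of Wnt signalling, Lhx2 a LIM homeodomain transcription factor, Gfra1 the co-receptor for the neurotrophic factor GDNF, and Cck the peptide cholecystokinin.

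The promoters of the leading genes of the rule are shown as the sequences next to which the selected RNAs begin by RefSeq. They are the 250 bases before the RefSeq start on the GRCm38.p6 assembly, read on each gene's own strand from 5′ to 3′. Capitals mark an AP-1 site (TGAGTCA) and a site like the cAMP response element (TGACATCA), both searched on both strands.
Npsr1, chr9:24097768-24098017, + strand: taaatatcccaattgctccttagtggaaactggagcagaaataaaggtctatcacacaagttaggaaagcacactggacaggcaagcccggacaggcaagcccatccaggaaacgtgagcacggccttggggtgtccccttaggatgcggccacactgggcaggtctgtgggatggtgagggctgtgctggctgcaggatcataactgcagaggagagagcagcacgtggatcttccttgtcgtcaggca
Nts, chr10:102490419-102490668, - strand: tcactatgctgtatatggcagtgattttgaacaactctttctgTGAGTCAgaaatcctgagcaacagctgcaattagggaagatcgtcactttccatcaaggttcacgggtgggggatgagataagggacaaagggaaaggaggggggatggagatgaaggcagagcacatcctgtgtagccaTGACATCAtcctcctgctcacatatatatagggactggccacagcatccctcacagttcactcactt
The Nts window held the AP-1 letters from position 44 and the cAMP response element-like letters from position 184, counted from its 5′ end, and the Npsr1 window held neither. Of 32851 mouse promoter windows of this length, 4.46% held the AP-1 letters and 2.93% the cAMP response element-like letters. In the gene annotation of the same build (GENCODE vM21), Npsr1 spans chr9:24097996-24316398 on the + strand and Nts chr10:102481756-102490486 on the - strand. By these spans both genes begin inside their windows, and the cAMP response element-like letters lie within the annotated Nts gene.

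Npsr1 led most members. It had the most UMIs of the rule genes in 38 of 59 NFD and 33 of 57 HFD nuclei, Nts did so in 16 and 10, Rspo2 in 2 and 2, Lhx2 in 2 and 7, and 1 and 5 nuclei were tied. Npsr1 ran from 0 through a median of 3 to 23 UMIs per member in NFD and from 0 through 4 to 29 in HFD. Summed over members this gave 526 CPM (counts per 1000000 UMIs of the class, 95% Poisson interval 467 to 591) in NFD and 481 (431 to 535) in HFD, against 47.3 and 53.6 in the other glutamatergic nuclei. UMIs of both Npsr1 and Nts were seen in 13 of 59 and 18 of 57 members.

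Nts was sparser. At least 1 UMI was present in 24 NFD and 29 HFD members, with a highest count of 9 and 12 and a summed level of 171 CPM (138 to 210) and 152 CPM (124 to 183). Other glutamatergic nuclei had 8.02 and 4.83 CPM of Nts. All of these values were used by the rule and are given as a description.

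**Figure D1:**
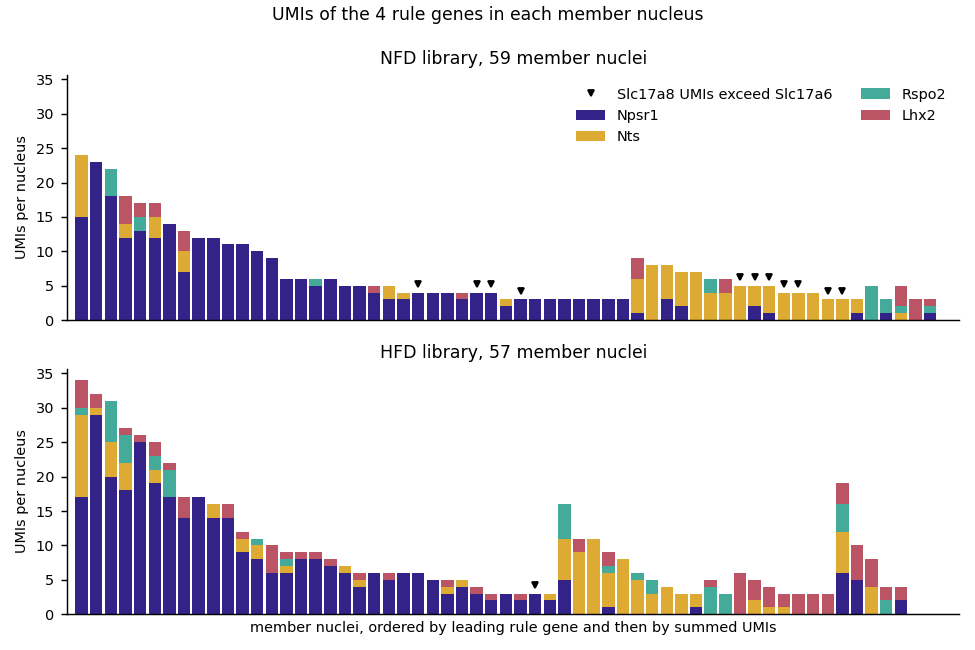
UMIs of Npsr1, Nts, Rspo2 and Lhx2 (stacked bars, vertical axis, UMIs per nucleus) in each of the 59 NFD and 57 HFD members (horizontal axis), ordered by leading gene; triangles mark nuclei with more UMIs of Slc17a8 than of Slc17a6. Npsr1-led nuclei make up most of both panels, 11 triangles stand in NFD and 1 in HFD, and many nuclei lie at the minimum of 3.

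Rspo2 and Lhx2 added few UMIs to the NFD members. Rspo2 was detected in 8 NFD and 15 HFD members, at 33.5 and 58.7 CPM. Lhx2 was detected in 11 NFD and 35 HFD members, at 46.5 CPM (30.1 to 68.6) and 107 CPM (84.4 to 135), and was also present in the glutamatergic nuclei chosen by Tac1 and Lhx9 through the mirrored rule, at 47.0 and 57.4 CPM. UMIs of more than 1 of the 4 rule genes were found in 23 of 59 NFD and 41 of 57 HFD members.

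Members near the threshold were frequent. Exactly 3 UMIs of the rule genes were present in 15 NFD and 12 HFD members, and 36 and 24 further nuclei that met every other criterion had 2. The highest sums were 24 and 34 UMIs, and 13 NFD and 19 HFD members had 10 or more. Among glutamatergic nuclei that reached 3 UMIs, 151 in NFD and 230 in HFD, the limit on Ebf2 and Ebf3 left out 90 and 169, Tac1 and Lhx9 left out 7 and 19, and Tph2 left out 1 and 4. When every nucleus was first thinned to 2000 UMIs, with 1141 and 1008 shallower nuclei left out, the rule found 11 of 6359 NFD nuclei (0.173%) and 17 of 5314 HFD nuclei (0.320%), of which 4 and 8 were members at full depth.

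The members did not hold most of the tissue's Npsr1 or Nts. They carried 13.2% and 11.2% of all Npsr1 UMIs of the NFD and HFD libraries, and 19.3% and 26.0% of all Nts UMIs. A further 114 NFD and 140 HFD nuclei reached 3 UMIs of the rule genes but had more UMIs of the GABAergic genes than of glutamate transporters. In microglia-like, oligodendrocyte-like and endothelial-like nuclei, which should lack these genes, 1.93% to 6.22% of nuclei had an Npsr1 UMI and at most 1.20% an Nts UMI, at medians of 1036 to 2928 UMIs per nucleus. In members, which the rule chose in part by Npsr1, the shares with an Npsr1 UMI were 78.0% and 68.4%. After thinning to 2000 UMIs they were 59.3% and 54.4%, against 5.69% and 6.09% in the other glutamatergic nuclei. Thinned microglia-like nuclei had 4.76% and 8.75%, and oligodendrocyte-like and endothelial-like ones 1.61% to 4.08%.

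Gfra1, which the rule did not use, was higher in the members. It was detected in 42 of 59 NFD and 45 of 57 HFD members, at 281 CPM (238 to 329) and 382 CPM (338 to 431), against 138 and 182 CPM in the other glutamatergic nuclei and 96.1 and 102 CPM in GABAergic nuclei. The log2 ratio to the other glutamatergic nuclei was 1.03 in NFD and 1.07 in HFD, with lower limits of 0.78 and 0.89. After thinning, 42.4% and 36.8% of members had a Gfra1 UMI, and 21.5% and 24.5% of the other glutamatergic nuclei did.

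Cck went against the label. The members held 20 Cck UMIs in 11 NFD nuclei and 10 UMIs in 8 HFD nuclei, which is 37.2 CPM (22.7 to 57.4) and 14.3 CPM (6.86 to 26.3). The other glutamatergic nuclei had 30.3 and 19.7 CPM, inside both intervals. Members held 2.27% and 1.67% of the Cck UMIs of the libraries, so the nuclei are called here by Npsr1 and Nts and not by Cck.

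**Figure D2:**
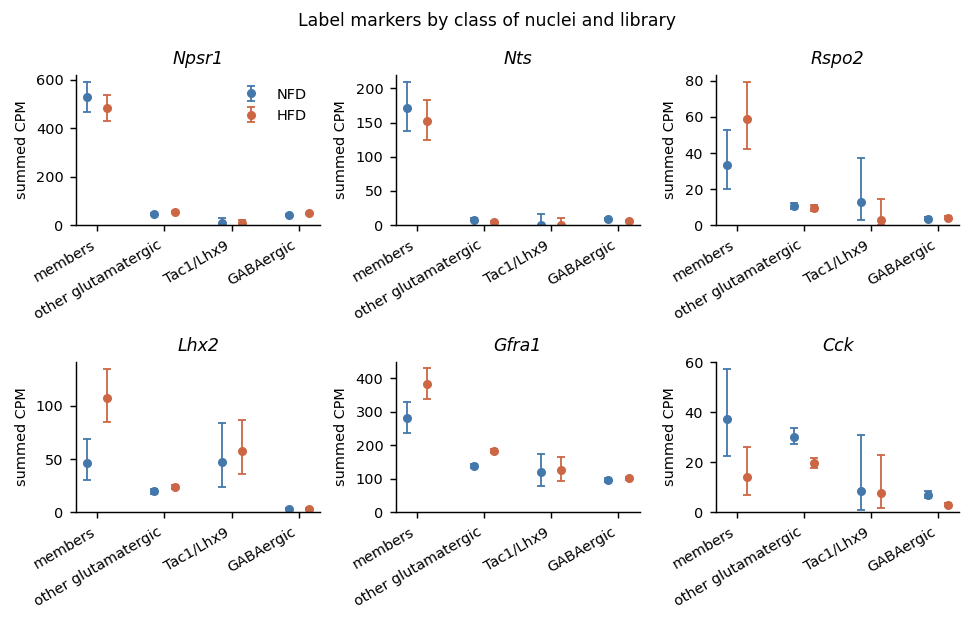
Summed CPM (vertical axes, 95% Poisson intervals) of Npsr1, Nts, Rspo2, Lhx2, Gfra1 and Cck in members, other glutamatergic, Tac1 and Lhx9 glutamatergic and GABAergic nuclei (horizontal axes), for the NFD and HFD libraries. Npsr1 and Nts stand at 526 and 171 CPM in NFD members by the rule itself, Gfra1 is higher in members without being in the rule, and Cck in members overlaps the other glutamatergic nuclei.

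The rule itself placed the members among glutamatergic nuclei, with a minority on another transporter. Slc17a6, the vesicular transporter usual in the midbrain, was at 175 and 210 CPM in NFD and HFD. Slc17a8 was at 87.4 and 27.2 CPM, and Slc17a7 at 0. In 11 of 59 NFD members but 1 of 57 HFD members Slc17a8 exceeded Slc17a6, in some NFD members by 1 UMI against 0. After thinning, 33.9% of NFD and 38.6% of HFD members had a Slc17a6 UMI. The other glutamatergic nuclei had 48.1% and 35.0%, and microglia-like nuclei 16.7% and 13.8%. Oligodendrocyte-like and endothelial-like nuclei had 1.67% to 4.55%. At least 3 transporter UMIs were present in 22 of 59 NFD and 24 of 57 HFD members. Others had a single one, among them an NFD nucleus of 19370 UMIs and an HFD nucleus of 18206. How many members rest on stray transporter UMIs was not tested.

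The 5 pan-neuronal markers summed to 6831 and 6278 CPM in members and 6364 and 6782 CPM in the other glutamatergic nuclei. The 4 GABAergic markers summed to 79.9 and 71.6 CPM against 77.7 and 77.6 CPM, with Gad1 and Slc32a1 at 0 in HFD members. Serotonergic markers, which include Tph2 of the rule, summed to 5.58 and 1.43 CPM against 157 and 128 CPM, and dopaminergic ones to 44.6 and 31.5 against 149 and 140. Glycinergic markers summed to 14.9 and 5.72 CPM against 10.4 and 9.40, and cholinergic ones to 112 and 55.8 against 55.4 and 56.2, so that these were not below the other glutamatergic nuclei in NFD. A single NFD nucleus held 38 of the 60 cholinergic UMIs of its library's members.

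Among non-neuronal lists, microglial markers summed to 40.9 and 30.1 CPM in members against 37.2 and 43.2 in the other glutamatergic nuclei, and oligodendrocyte markers to 27.9 and 7.16 against 23.4 and 20.2. Oligodendrocyte precursor markers summed to 18.6 and 34.3 CPM against 42.6 and 36.7, astrocyte markers to 7.44 and 7.16 against 14.2 and 23.9, and ependymal markers to 24.2 and 44.4 against 36.8 and 37.7. Endothelial markers summed to 3.72 and 5.72 CPM against 19.0 and 13.8, pericyte or fibroblast markers to 5.58 and 1.43 against 4.93 and 5.16, and blood markers to 0 in members of both libraries. Cerebellar granule-like markers summed to 18.6 and 17.2 CPM against 8.28 and 76.4. Csf1r and C1qa of microglia, Mog and Mal of oligodendrocytes, Pdgfra and Cspg4 of their precursors, and Gja1 and Agt of astrocytes were at 0 in members of both libraries.

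Set against the other 1686 NFD and 1715 HFD glutamatergic nuclei, the members were richer in the midbrain homeobox gene Otx2, its overlapping transcript Otx2os1, and 11 other genes. Of 9905 genes outside the rule with at least 100 UMIs in members and comparison nuclei of each library, 13 had an interval wholly above 2-fold in both libraries, 0.131%, and 10 wholly below, 0.101%. With 1 library per diet these are sizes beyond counting error and not tests between animals. Without members that had any Gad1, Gad2 or Slc32a1 UMI 12 were higher and 8 lower, 11 and 6 of them among the 13 and 10, and without nuclei over 16000 UMIs 11 and 4, of which 9 and 4 were.

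Otx2os1 is a long noncoding RNA at chr14:48668708-48870683 on the + strand. It ran from 0 through a median of 2 to 31 UMIs per member in NFD and from 0 through 8 to 45 in HFD, and was detected in 33 of 59 and 41 of 57 members. Its summed level was 604 CPM (540 to 674) in NFD and 741 CPM (679 to 808) in HFD, against 134 and 117 CPM in the other glutamatergic nuclei. The log2 ratio was 2.18 (2.00 to 2.35) and 2.67 (2.53 to 2.81).

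Otx2 itself, a homeodomain factor that patterns the midbrain, is encoded on the opposite strand at chr14:48657677-48673819, within which Otx2os1 begins. Members held 16 and 20 Otx2 UMIs, 29.7 and 28.6 CPM against 7.44 and 7.31, with log2 ratios of 2.00 (1.13 to 2.78) and 1.97 (1.21 to 2.65). The sources used here do not describe the counting of reads in the overlap. Most Otx2os1 UMIs of the tissue lay outside the members, 50.6% and 60.9% of them in GABAergic nuclei.

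Tll1, Fgf10, Col12a1 and Nxph1 encode secreted or matrix proteins. Tll1, a tolloid-like protease that processes matrix proteins and growth factor inhibitors, was at 126 and 186 CPM in members against 19.6 and 38.7 CPM, with log2 ratios of 2.69 (2.28 to 3.09) and 2.26 (1.98 to 2.54). Fgf10, a fibroblast growth factor, was at 50.2 and 81.6 CPM against 14.5 and 20.9 (log2 1.80 and 1.96). The collagen gene Col12a1 had log2 ratios of 1.85 and 1.79. Nxph1, a secreted neurexin ligand, was at 734 and 667 CPM against 317 and 277 (log2 1.21 and 1.27).

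Kcnb2, a delayed rectifier potassium channel subunit, was detected in 58 of 59 and 57 of 57 members, at 2173 and 3028 CPM against 1001 and 1013 (log2 1.12 and 1.58). Zeb2, a zinc finger repressor, was at 231 and 351 CPM against 85.3 and 91.5 (log2 1.43 and 1.94), and Arhgap15, a Rac GTPase-activating protein, at 169 and 163 CPM against 44.5 and 39.6 (log2 1.93 and 2.04). Mylk, the myosin light chain kinase gene, had log2 ratios of 2.23 and 3.16 and Tmem132c 1.65 and 1.46. Dpy19l1 was at 115 and 109 CPM against 40.0 and 38.8 (log2 1.53 and 1.49). It lies near the rule gene Npsr1, at chr9:24411776-24503140, where Npsr1 ends at 24316398. The gene left unnamed here is 1 predicted model. Of the 13, 10 have RefSeq promoter entries, 17 in all, of which 1, that of Otx2, held the Otx-type core TAATCC on either strand. Over all promoter windows that share was 6.25%.

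**Figure D3:**
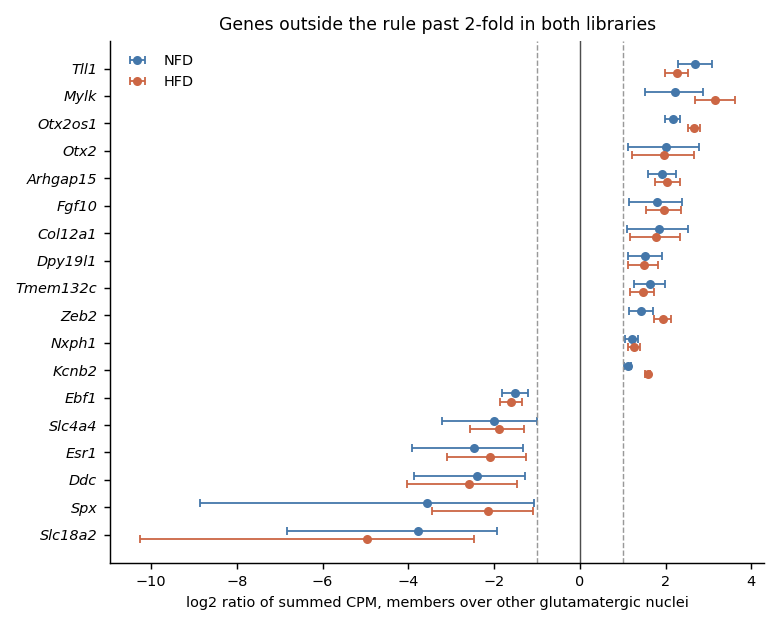
Log2 ratio of summed CPM in members over other glutamatergic nuclei (horizontal axis, 95% intervals) for the named genes outside the rule past 2-fold (dashed lines) in both libraries; points are the NFD and HFD libraries. Tll1, Mylk, Otx2os1 and Otx2 lie near or above 2 in both, and Ddc, Spx and Esr1 near or below -2.

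Of the 10 genes lower in members, 4 are related to the genes the rule left out. Ebf1, a paralogue of the excluded Ebf2 and Ebf3, was at 165 and 179 CPM against 470 and 544 (log2 -1.51 and -1.61), and 1 nucleus held 53.6% of its UMIs in HFD members. The serotonin transporter gene Slc6a4 was at 0 in both, and 3 counts, the limit taken for a count of 0, are 5.58 and 4.29 CPM. Slc18a2, which loads monoamines into vesicles, had 2 and 1 UMIs, and Ddc, a monoamine synthesis enzyme, had 6 and 6.

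Esr1, Spx and Slc4a4 are less directly tied to the excluded genes. The oestrogen receptor gene Esr1 was at 11.2 and 15.7 CPM in members against 61.5 and 67.4 (log2 -2.46 and -2.10). Spx, the peptide spexin, had 1 and 7 UMIs (log2 -3.56, -8.87 to -1.07, and -2.13, -3.45 to -1.09), and the bicarbonate transporter gene Slc4a4 log2 ratios of -1.99 and -1.89. A further 3 were unnamed models.

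Next to the 36 NFD and 34 HFD glutamatergic nuclei chosen by Tac1 and Lhx9, 4 genes outside the rule were higher and 5 lower past 2-fold in both libraries, of 1415 tested. Otx2os1 again stood higher, at log2 3.34 and 3.06, with Zeb2 at 2.75 and 1.52, Nxph1 at 2.57 and 2.68 and the retinal determination factor gene Dach1 at 2.06 and 1.39. Tcf7l2, a Wnt effector, was lower in members at -2.22 and -2.47, Zfhx3 at -1.37 and -1.60 and Plcl1 at -1.53 and -2.19, with Zmat4 and Ebf1 also lower.

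Gene families fixed by list are described here against the other glutamatergic nuclei. Of all 9905 genes 0.131% passed above and 0.101% below, so counts of 0 in lists this short say little about a family. None of 15 measured calcium channel subunits, 22 glutamate receptors, 18 GABA and glycine receptors, 46 adhesion genes or 36 vesicle release genes passed 2-fold in both libraries. Of the 34 midbrain lineage factors Otx2 passed above and Ebf1 below, of 27 potassium channels Kcnb2 passed above, and of 18 peptide and hormone receptors Esr1 passed below. The list medians lay between -0.28 and 0.29 in NFD, except -0.81 for the 5 immediate early genes and -0.59 for the 13 mitochondrially encoded RNAs, and the median over all 9905 genes was -0.05. In HFD the list medians lay between -0.69 and 0.17. No gene of the other lists passed.

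Of all 9905 genes, 2373 had ratios above 0 in both libraries and 3125 below 0 in both. The list genes given next, none past 2-fold in both, were picked after their values were seen. The log2 ratios of the serotonin receptor gene Htr2c were 0.54 and 0.40, those of the clock gene Npas2 1.35 and 1.18, and those of Adcyap1, the peptide PACAP, 0.81 and 0.76. The thyrotropin-releasing hormone receptor gene Trhr was at 0.87 (-0.03 to 1.66) and 1.08 (0.25 to 1.82). The synapse organiser Nrxn3 was at -0.91 and -1.37, and the A-type potassium channel gene Kcnd3 at -0.67 and -0.68. The leptin receptor gene Lepr had 10 and 9 UMIs in members and the orexin receptor gene Hcrtr2 13 and 9.

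The members were not uniform. Otx2os1 split them, since 30 of 59 NFD members (50.8%, 37.5 to 64.1) and 40 of 57 HFD members (70.2%, 56.6 to 81.6) had 2 or more of its UMIs, and the remaining 29 and 17 held 3 and 1 UMIs in all. After thinning to 2000 UMIs, 40.7% and 61.4% of members had an Otx2os1 UMI. The line was drawn after the values were seen and is a description.

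The Otx2os1-bearing members carried more Tll1, 194 against 31.4 CPM in NFD and 248 against 42.9 CPM in HFD. Zeb2 stood at 369 against 35.8 CPM in NFD and at 380 against 281 CPM in HFD, and Kcnb2 at 2724 against 1398 CPM and 3426 against 2101 CPM. Gfra1 was at 337 against 202 CPM in NFD and 430 against 272 CPM in HFD. Npsr1 itself did not separate them, at 528 against 524 CPM in NFD and 509 against 414 CPM in HFD.

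The members with 0 or 1 Otx2os1 UMI carried more of other genes. Meis2, a homeodomain partner factor, was at 349 CPM in them against 44.5 in NFD and 362 against 34.8 in HFD. It was detected in only 7 of these 29 NFD and 8 of these 17 HFD nuclei. Kctd8, an auxiliary subunit of GABA-B receptors, was at 515 against 232 CPM and 462 against 96.1 CPM. Of the 188 Kctd8 UMIs of NFD members, 118 lay in the 11 nuclei in which Slc17a8 exceeded Slc17a6. A single nucleus held 32.6% of those of HFD members. Foxp2, a forkhead repressor, was at 412 against 47.7 CPM in NFD and 81.0 against 4.09 CPM in HFD. All but 1 of the NFD nuclei with Slc17a8 UMIs, 11 of 12, and both of the HFD ones fell here. Nts was at 139 CPM in NFD but a single UMI in HFD, against 194 and 215 CPM in the Otx2os1-bearing members.

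Members are next ordered by their UMIs of the rule genes, a description because the rule used these UMIs. Of those with 10 or more, 8 of 13 NFD and 15 of 19 HFD nuclei had 2 or more Otx2os1 UMIs. Those with 4 to 9 were close to this, at 18 of 31 and 19 of 26, and those with exactly 3 had 4 of 15 and 6 of 12. In the order 3, 4 to 9, and 10 or more, Gfra1 was at 175, 305 and 321 CPM in NFD. It did not differ in HFD, at 382, 380 and 384 CPM. Kcnb2 ran from 1640 CPM at 3 UMIs through 1934 to 3010 CPM at 10 or more in NFD, and from 1579 through 2685 to 4034 CPM in HFD. Total UMIs moved with the rule genes too, with medians of 5856, 8011 and 10440 in NFD and 9506, 10034 and 14854 in HFD, and the part of depth in these values was not tested.

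Npsr1-led and Nts-led members differed in genes of neither rule nor label. The genes given were picked by the smaller of their NFD and HFD ratios to the other members. A shared direction in both libraries was therefore part of the choice. Adarb2, an RNA-binding protein related to RNA-editing enzymes, was at 565 CPM in Npsr1-led and 164 CPM in Nts-led members in NFD, and at 346 and 9.42 CPM in HFD. A single nucleus held 34.8% and 38.7% of the Npsr1-led Adarb2 UMIs in NFD and HFD, and 69.6% of the Nts-led ones in NFD. Meis2 was at 248 and 14.2 CPM in NFD and 175 and 9.42 CPM in HFD, but in only 8 of 38 and 9 of 33 Npsr1-led nuclei. Of its Npsr1-led UMIs, 44.3% in NFD and 29.2% in HFD lay in 1 nucleus. Arhgap15 was at 225 and 14.2 CPM in NFD and 202 and 28.3 CPM in HFD. The values of Rbms1 were 290 and 85.3 CPM in NFD and 158 and 75.4 CPM in HFD, and those of Ankfn1 259 and 121 CPM in NFD and 348 and 170 CPM in HFD.

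Nts-led members were the richer in Nxph1, at 1685 CPM against 425 CPM in NFD and 1696 against 453 CPM in HFD. The nuclear factor gene Nfia stood at 519 against 124 CPM and 707 against 183 CPM. Nell1, a secreted glycoprotein, was at 640 against 149 CPM and 660 against 97.4 CPM, and the ephrin receptor gene Epha6 at 1543 against 608 CPM and 2026 against 409 CPM. Hmcn1, a matrix protein, was at 199 against 56.3 CPM and 283 against 80.4 CPM. It was detected in 7 of 16 NFD and 4 of 10 HFD Nts-led nuclei, with 46.4% and 46.7% of those UMIs in 1 nucleus.

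**Figure D4:**
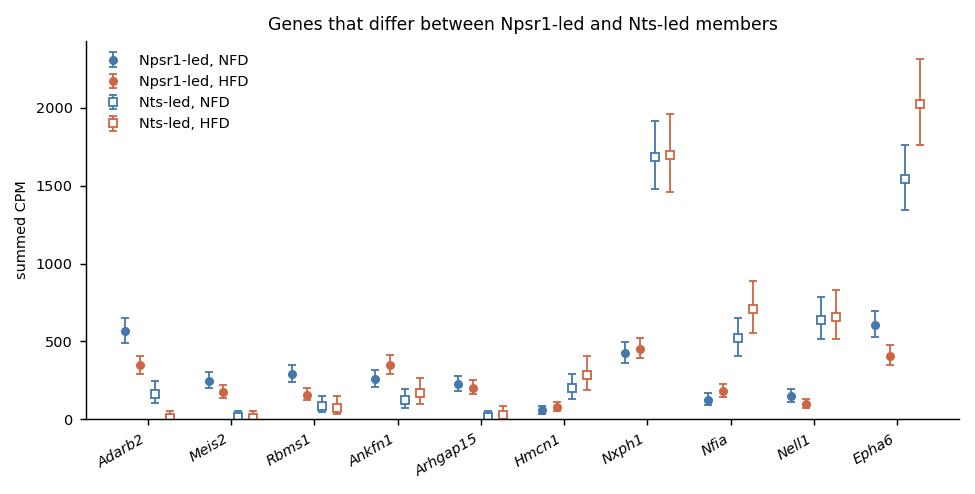
Summed CPM (vertical axis, 95% Poisson intervals) of 10 genes outside the rule in Npsr1-led (38 NFD and 33 HFD nuclei) and Nts-led (16 and 10 nuclei) members. Adarb2, Meis2, Rbms1, Ankfn1 and Arhgap15 lie higher in Npsr1-led nuclei and Hmcn1, Nxph1, Nfia, Nell1 and Epha6 in Nts-led nuclei. The genes were picked by their ratios in both libraries, so the shared direction was part of the choice.

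The other leading genes rested on few nuclei. In the 2 NFD and 7 HFD nuclei led by Lhx2, the mitochondrial RNAs mt-Nd4, mt-Cytb, mt-Rnr2 and mt-Nd1 led the genes outside the rule when these were ordered by the smaller of the NFD and HFD ratios to the other members, for mt-Nd4 log2 1.64 and 2.02, followed by the sortilin-related receptor gene Sorcs3 at 1.23 and 1.13. The 2 NFD and 2 HFD nuclei led by Rspo2 had more of Kctd16, an auxiliary subunit of GABA-B receptors (log2 2.02 and 3.12), and of the calcium channel subunit gene Cacna2d3 (1.71 and 2.40).

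The Slc17a8-led members, of which 7 were Nts-led and 4 Npsr1-led in NFD, carried a further set of genes. Sox2ot, a long noncoding RNA that overlaps Sox2, had 213 of its 224 NFD member UMIs in these 11 nuclei, at 56, 39, 32, 32, 29, 15, 6, 3, 1, 0 and 0 UMIs. Erbb4, the neuregulin receptor gene, was at 5141 CPM in them against 852 CPM in the Slc17a6-led NFD members, a log2 ratio of 2.59 (2.39 to 2.79). Kctd8 was at 1357 against 155 CPM (log2 3.13), Plxdc2 at 920 against 135 CPM (2.77) and the olfactomedin gene Olfm3 at 943 against 220 CPM (2.10). The single HFD nucleus of this kind had 201 Erbb4 and 47 Kctd8 UMIs but 3 of Sox2ot.

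Genes typical of the remaining members were scarce in the Slc17a8-led nuclei. Slc17a6-led NFD members had 1009 CPM of the sorting receptor gene Sorcs1 against 127 CPM in Slc17a8-led ones, and 694 against 138 CPM of Otx2os1. All Otx2os1 UMIs of the Slc17a8-led NFD members, 12, lay in a single nucleus of 20674 UMIs. Zeb2 was at 0 UMIs in all 11 nuclei.

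Between diets, 35 of 2354 genes outside the rule with at least 100 UMIs in members were higher in HFD with an interval wholly past 0.32 on the log2 scale, 1.49%, and 35 lower, also 1.49%. The higher genes included the receptor tyrosine kinase gene Alk, the vesicle release factor Cadps2 and the dystrophin relative Utrn. The lower ones included Foxp2, the phosphodiesterase gene Pde10a and the zinc finger gene Zfp804b. Of all 2354 genes 1364 lay above 0 and 990 below. Their median log2 ratio of HFD over NFD was 0.05, and centring on it gave 29 higher and 45 lower. In bulk sums over members, fewer nuclei of one kind and less RNA per nucleus cannot be told apart, and diet cannot be told apart from the library.

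Alk ran from 0 through a median of 1 to 11 UMIs in NFD members and from 0 through 2 to 37 in HFD members, which overlap. Its summed levels of 223 and 472 CPM gave a log2 ratio of 1.08 (0.78 to 1.40), against 0.11 in the other glutamatergic nuclei. Cadps2 went from 49 UMIs in 17 NFD members to 160 UMIs in 31 HFD members (log2 1.33, 0.86 to 1.82), with 0.61 in the other glutamatergic nuclei. Sphkap, an anchor of protein kinase A, went from 195 to 358 CPM (log2 0.87), with 0.55 in the other glutamatergic nuclei.

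Other genes past the fold had varied roles. Utrn, which encodes utrophin, stood at 121 and 262 CPM (log2 1.12) and Parm1 at 112 and 249 CPM (1.16). The Notch coactivator gene Maml2 had a log2 ratio of 1.02, Tmcc3 1.10, the heparan sulfate enzyme gene Ndst3 0.95, the kinase gene Cdk17 0.90 and the nuclear factor gene Nfib 0.85. Without the Slc17a8-led members Cdk17 was at 0.73 (0.30 to 1.18), not wholly past 0.32. Of the 35 higher genes, 30 had the same sign in the other glutamatergic nuclei and 7 were also past the fold there. The same shares over all 2354 genes are not given here, so these counts are only a description.

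Sox2ot showed the largest difference, from 416 to 34.3 CPM (log2 -3.60, -4.27 to -2.99). Without the Slc17a8-led members its ratio was 0.36, so the direction rested on those 11 NFD nuclei and 1 HFD nucleus. Sdk1, a synaptic adhesion gene, went from -1.14 to -0.58 without them, Thsd7b from -0.95 to -0.39 and Kctd8 from -0.76 to -0.11, and none of these 3 was then wholly past the fold. Without the Slc17a8-led members 26 genes were higher and 26 lower, of which 22 and 19 were among the 35 and 35.

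The other 34 lower genes stayed below 0 without those nuclei. Zfp804b was detected in 41 of 59 NFD and 28 of 57 HFD members, at 1331 and 446 CPM (log2 -1.58, -1.77 to -1.38, and -1.34 without them). Ptprt, a receptor phosphatase, was at 1049 and 498 CPM (log2 -1.07), with 0.08 in the other glutamatergic nuclei. Pde10a, which degrades cyclic nucleotides, was at 463 and 253 CPM (log2 -0.87), while it stood higher in HFD in the other glutamatergic nuclei at 0.46. Kctd16 had a log2 ratio of -1.07, Adarb2 -0.89 and Rbms1 -0.82, and 1 of the 10 genes most below 0 was an unnamed model. Of the 35 lower genes, 24 had the same sign in the other glutamatergic nuclei and 2 were also past the fold there, again without the share over all genes.

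Foxp2 had 107 UMIs in 18 NFD members and 19 UMIs in 5 HFD members, 199 and 27.2 CPM (log2 -2.87, -3.66 to -2.16), and in each library it lay mainly in members with little Otx2os1. Among members with 2 or more Otx2os1 UMIs alone, 30 in NFD and 40 in HFD, Foxp2 had 15 UMIs in 5 NFD nuclei and 2 UMIs in 1 HFD nucleus. Over those members 6 genes were higher and 14 lower, of 1526 measured, and 3 and 12 of them were among the 35 and 35. There Alk stood at 0.52, Cadps2 at 0.95, Utrn at 0.78, Zfp804b at -1.07, Ptprt at -0.69 and Pde10a at -0.76. A larger share of HFD members had Otx2os1, as given above, and its part in the differences over all members was not tested.

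**Figure D5:**
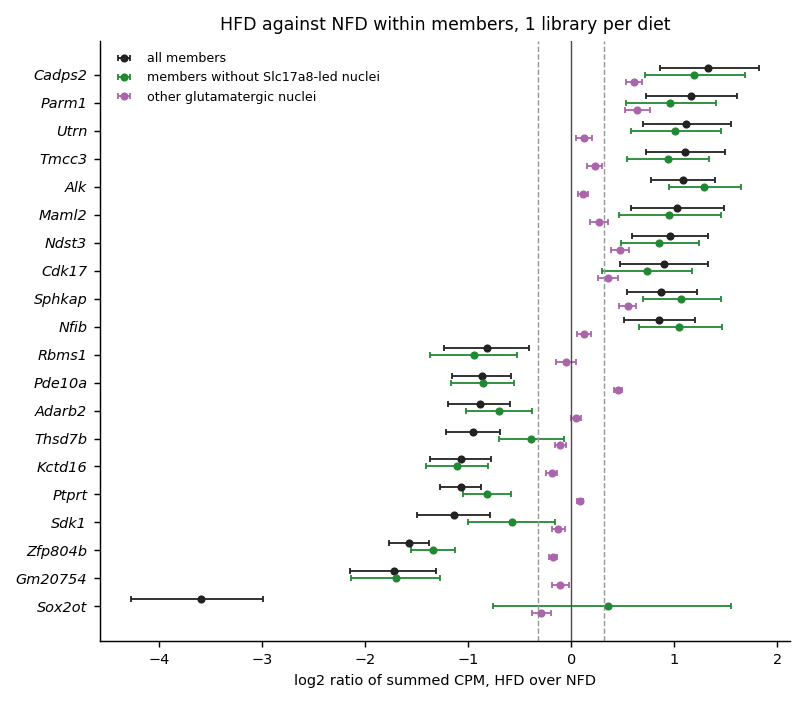
Log2 ratio of summed CPM in HFD over NFD (horizontal axis, 95% intervals of counting error) for the 10 genes most above and the 10 most below 0 with at least 200 UMIs; colours are all members, members without Slc17a8-led nuclei, and other glutamatergic nuclei, and dashed lines mark 0.32 above and below 0. Sox2ot moves from -3.60 to 0.36 without the Slc17a8-led nuclei, and Alk and Pde10a lie apart from the other glutamatergic nuclei.

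Of the label genes outside the rule, Gfra1 had a log2 ratio of 0.44 (0.15 to 0.74), not wholly past 0.32. Cck, with 20 UMIs in NFD and 10 in HFD, was below the minimum of 100 UMIs, and its levels of 37.2 and 14.3 CPM had the overlapping intervals given above. Cacna2d1, the calcium channel subunit gene that the study follows in GABAergic cells, was detected in every member, from 2 through a median of 15 UMIs in both libraries to 34 in NFD and 167 in HFD. It was at 1722 and 1631 CPM, a log2 ratio of -0.08 (-0.20 to 0.05), with 1 HFD nucleus holding 14.6% of the UMIs. Members had more Cacna2d1 than the other glutamatergic nuclei, by log2 0.44 (0.34 to 0.53) in NFD and 0.21 (0.13 to 0.30) in HFD, within 2-fold.

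Channel, receptor and other lists are described here and below beside all 2354 measured genes. Of those 1.49% were higher and 1.49% lower past the fold, so small counts in short lists are only a description. Of 18 measured potassium channels 9 were above and 9 below 0, with Kcnb2 (0.48) and Kcnh5 (0.73) past the fold. Without the Slc17a8-led members these stood at 0.36 (0.26 to 0.47) and 0.54 (0.15 to 0.95), no longer wholly past it. Of 10 calcium channel subunits Cacna2d3 passed (0.74, but 0.61 and not wholly past without those members), while Cacna1c was at 0.39 and Cacnb2 at -0.31. Neither the 19 glutamate receptors, from -0.62 for Grm3 to 0.34 for Gria1, nor the 14 GABA and glycine receptors, from -0.38 to 0.66 for Glra2, had a member past the fold. The 7 sodium and HCN channels lay between -0.28 and 0.09, and the 4 measured monoamine and acetylcholine receptors between -0.61 for Chrm2 and 0.16.

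Of 37 adhesion genes 17 were above and 20 below 0, and Sema3e (1.65, 22 and 90 UMIs, 35.6% of the HFD ones in 1 nucleus) and Cntn6 (0.59) passed. Without the Slc17a8-led members Cntn6 was at 0.49 (0.25 to 0.73), not wholly past. Among 18 vesicle release genes Cadps2 alone passed, and the 6 measured peptide processing genes had a median of -0.12, led by Scg2 at -0.82. The 12 lineage factors had a median of 0.21, with Nfib and Foxp2 past the fold in opposite directions.

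All 8 measured mitochondrially encoded RNAs lay above 0, as did 1364 of all 2354 genes, with a median of 0.31. Past the fold were mt-Nd4 (0.71) and mt-Nd2 (0.68), whereas both were below 0 in the other glutamatergic nuclei, at -0.17 and -0.32. A single HFD member held 26.5% of the mt-Nd4 UMIs. The noncoding RNA Malat1 was past the fold at -0.76 in members and stood at -0.56 in the other glutamatergic nuclei, and the other 7 noncoding RNAs did not pass.

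The 3 measured heat shock chaperones lay between 0.01 and 0.58, the 3 cholesterol and fatty acid synthesis genes between -0.38 and -0.12, the 3 Wnt genes between -0.03 and 0.32, the 3 peptide and hormone receptors between -0.10 and 0.49, the clock genes Clock and Rora at 0.06 and 0.08, and Ncam1 of the GDNF receptor list at 0.02. No neuropeptide or immediate early gene of the lists reached 100 UMIs in members.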

How the data were processed

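Single-nucleus RNA was measured in 1 droplet library per diet, each from 18 pooled mice. The files deposited by the authors are matrices of whole UMI counts, genes by nuclei. Submitters' processing notes name bcl2fastq 5.01, GRCm38, Cell Ranger and Seurat 3.1.1, and the matrix header gives Cell Ranger 4.0.0. The sources used here do not say if reads in introns were included.

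Nuclei with over 500 UMIs and under 20% mitochondrial counts were kept, as in the study. UMIs were summed per library and class. Levels in CPM carry exact Poisson limits, log2 ratios exact conditional binomial limits and shares Clopper-Pearson limits, at 95%, from Python 3.11.15 (numpy 2.4.6, scipy 1.17.1, pandas 2.3.3, plots in matplotlib 3.10.9). Precision follows depth: members held 537872 NFD and 698767 HFD UMIs. With 1 library per diet no p-value was computed. A gene was past the fold when its whole interval lay beyond 2-fold in each library when members were set against other nuclei, or past 0.32 on the log2 scale (diets), among genes with at least 100 UMIs. The ratio step was tested on simulated data. No doublet caller was run; alternatives left out nuclei over 16000 UMIs or with any GABAergic UMI. Marker sums of at least 3 UMIs that exceeded the transmitter sums made a nucleus microglia-like, oligodendrocyte-like or endothelial-like.

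Named are the label and rule genes, the 15 genes highest and 10 lowest against other glutamatergic nuclei, the 10 most above and below 0 between diets with at least 200 UMIs, up to 4 genes of each list per comparison, up to 5 per leading gene, Cacna2d1 and cell type markers. Foxp2, the genes of the Otx2os1 split, those of the Slc17a8-led nuclei and the genes set against the Tac1 and Lhx9 nuclei were chosen after their values were seen. The members and lists were chosen with earlier results of these data known.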

Additional observations from a re-analysis of the deposited data

How the results depend on the processing

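No paired analysis was possible because each diet is 1 library. Depth limits the members: the HFD library is deeper, the rule needs 3 UMIs, and 15 of 59 NFD and 12 of 57 HFD members lie at that minimum. Settings on Slc17a8-led nuclei, on Otx2os1 and on the member richest in each gene were added after seeing the data. The mean CPM over nuclei has no interval and so gives no counts past the fold. The cause of the changes below was not tested, apart from fewer genes or nuclei entering where given.

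With at least 5 UMIs of the rule genes the member share was 0.453% in NFD and 0.633% in HFD. Between diets 19 genes were then higher and 28 lower of 1608, of which 13 and 16 were also so over all members. Against the other glutamatergic nuclei 19 were higher and 10 lower of 9847, of which 11 and 4 were also so over all members. With thinning to 2000 UMIs before the rule the shares were 0.173% and 0.320%, with 3 higher and 1 lower of 42 genes between diets, and 2 higher and 1 lower of 2667 against the other glutamatergic nuclei. With members thinned after selection, 2 were higher and 9 lower of 337 genes between diets, and 2 higher and 0 lower of 5032 against the other nuclei. Leaving out nuclei over 16000 UMIs left 4 genes lower than in the other nuclei. Between diets it gave 32 higher and 37 lower of 1654 genes, of which only 16 and 22 were also so over all members. Over members with 2 or more Otx2os1 UMIs, 6 genes were higher and 14 lower between diets, and 24 higher and 25 lower against the other nuclei. A minimum of 20 UMIs gave 78 higher and 88 lower between diets, and one of 300 UMIs gave 15 and 19.

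Between diets, signs turned for Thsd7b (0.18), Rbms1 (1.11), Sdk1 (0.37), Adarb2 (0.96), mt-Nd2 (-0.32) and mt-Nd4 (-0.73) with thinning before the rule, for Rbms1 (0.028) with at least 5 UMIs, for Cdk17 (-0.11) with members thinned, for Sox2ot (0.36) without Slc17a8-led nuclei, and for Sox2ot (0.36) and Sdk1 (0.21) over members with Otx2os1. Against the other glutamatergic nuclei, NFD ratios turned with thinning before the rule for C230014O12Rik (0.63), Nxph1 (-0.10) and Esr1 (0.78). Of the alternatives to counts and shares, 55 stayed within the limits set and 22 moved. For named genes between diets 824 stayed within the main interval, 154 moved and 11 turned sign, for those against other nuclei 364, 83 and 3, and of the list medians 139 stayed and 37 moved.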
